A study of Rattus norvegicus with 8 samples.

Results

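The genes that encode the elastic fibre were examined in rat AFCs (annulus fibrosus cells, from the outer ring of the intervertebral disc) under cyclic mechanical stretch (CMS). The members are 10 genes, namely Eln, Fbn1, Fbn2, Mfap2, Mfap4, Mfap5, Fbln1, Fbln2, Fbln5 and Efemp2. They were chosen by name for their place in the fibre and not by a threshold on their values, but with earlier results of these data known. All 10 were found by symbol among the 31699 rows of the deposited table. AFCs of Sprague Dawley rats, pooled from 8 rats per isolation and used at passage 3, were infected at an MOI of 20 for 24 h with the control vector pLVX-shRNA-Puro (Lv-Ctrl) or with pLVX-shRNA-Puro-Piezo1 (Lv-Piezo1), made to knock down the mechanosensitive channel Piezo1 by a short hairpin RNA. Both groups were then stretched at 20% elongation and 0.5 Hz for 36 h, so no unstretched or uninfected cells are compared here. RNA-seq covered 4 samples per group, and the values are TPM (a length-scaled share of all transcripts), a level that can be compared between genes because it is per length.

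An elastic fibre has a core of crosslinked elastin, the protein of Eln, laid down on a scaffold of microfibrils. The microfibrils are polymers of fibrillins decorated by microfibril-associated glycoproteins, and fibulins carry elastin and the crosslinking enzymes of the lysyl oxidase family to the scaffold. In the annulus fibrosus such fibres run within and between the collagen lamellae and help the tissue to recoil after it has been stretched.

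Most members were higher in the Lv-Piezo1-labelled samples. Of the fibulin members, Fbln2 was called higher and Fbln1 lower, while Fbln5 and Efemp2 (fibulin-4) were not called. Fbln2 rose 16.3-fold, Mfap5 rose 3.65-fold, Mfap4 rose from near 0, and Mfap2 rose 2.32-fold, at the threshold of the call, while Fbln1 fell to 0.252 of its level in the Lv-Ctrl-labelled samples. Elastin itself was listed at or near 0 in every Lv-Ctrl-labelled sample and reached 1.27 ± 0.301 TPM (SD, n = 4) in the Lv-Piezo1-labelled ones. Fbn1, the main fibrillin of adult tissue, was not called. A gene was called where limma gave a Benjamini-Hochberg adjusted p below 0.05 and the log2(TPM + 1) differed by 1 or more between the groups. On this scale the change of a gene with low TPM comes out too small. SE stands for the standard error of such a difference. Of the 10 members, 8 had a mean of at least 1 TPM over the 8 samples and were tested, Mfap4 among them only through its level in the Lv-Piezo1-labelled samples. Of these, 4 were called higher, where 4.91% of all 13103 tested genes were, and 1 was called lower, where 2.76% were. An adjusted p below 0.05 without regard to size was reached by 7 of the 8, against 58.2% of all tested genes. The groups did not overlap in 7 of the 8, against 54.2% of all tested genes. The median log2 fold change was 0.67 over the 8 members and 0.14 over all tested genes. Without the limit on low TPM, 5 members were called higher, where 2.05% of all rows were. Since the members were chosen with earlier results of these data known, these contrasts describe the set and do not test it.

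**Figure D1:**
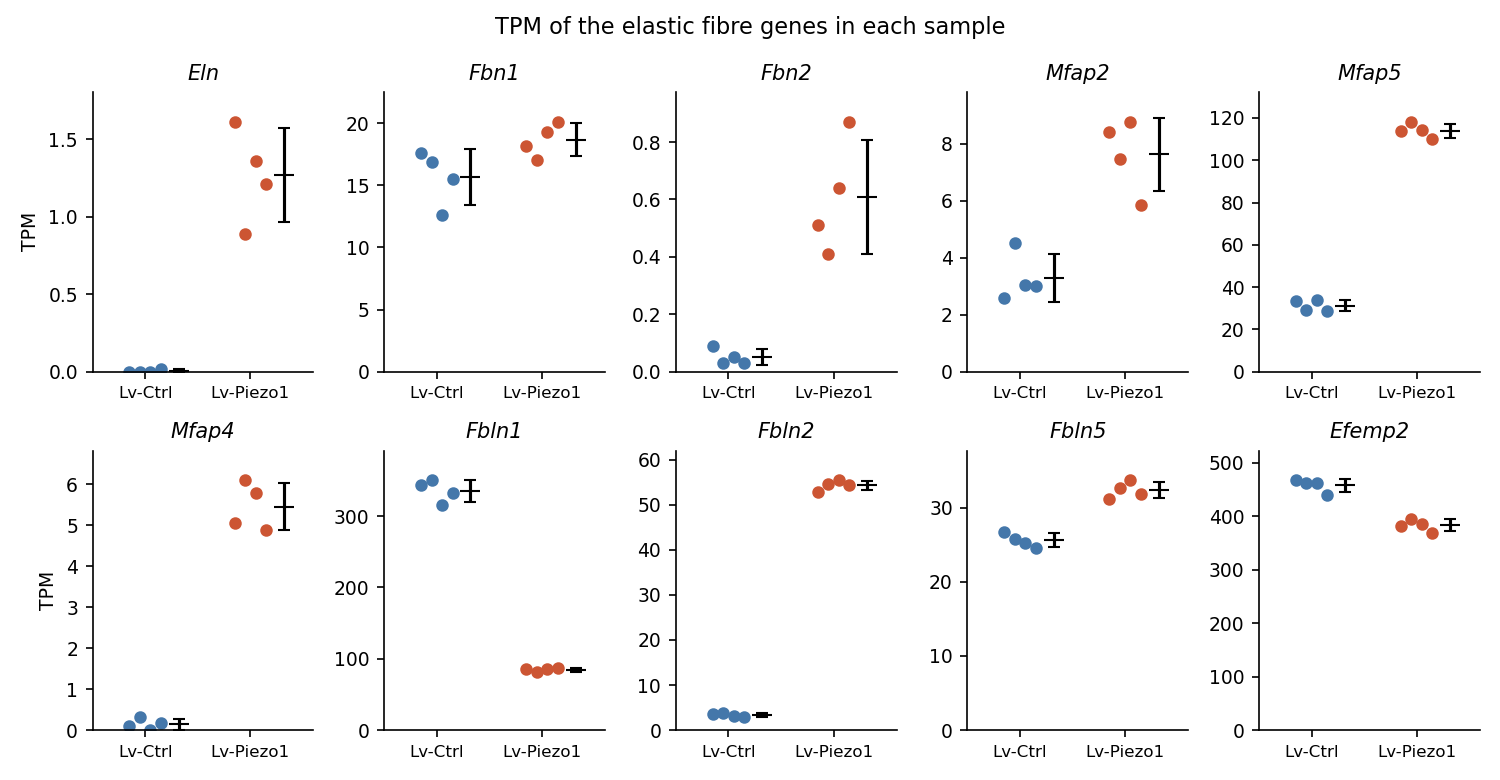
Each panel plots the TPM of 1 elastic fibre gene (y axis, from 0) in the 4 Lv-Ctrl-labelled samples (blue) and the 4 labelled Lv-Piezo1 (orange), with the mean and SD beside the points. Fbln1 and Efemp2 lie lower in the Lv-Piezo1-labelled samples, Fbn1 overlaps between the groups, and the other 7 genes lie higher.

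Piezo1, the gene targeted by the hairpin, had 26.7 to 33.0 TPM in the Lv-Ctrl-labelled samples and 37.7 to 41.4 TPM in the Lv-Piezo1-labelled ones, so the transcript went against the label (log2 fold change 0.38, SE 0.06, limma adjusted p = 8.6e-04). Its log2 fold change was 0.22 after median-ratio scaling. Every direction given here is therefore that of the Lv-Piezo1-labelled samples against the Lv-Ctrl-labelled ones. The study states that the hairpin was checked and was effective. The share of TPM on mitochondrially encoded genes was 7.03% to 7.90% in the first group and 6.05% to 6.53% in the second. The median of 0.14 over all tested genes went to -0.0046 after median-ratio scaling of the samples, and the split of called genes from 64.1% higher to 52.3% higher, or 48.8% on quantile-normalized values. Relative to the median of 0.14, the fold changes of the tested members were 3.54 for Fbln2, 2.35 for Mfap4, 1.70 for Mfap5, 0.87 for Mfap2, 0.18 for Fbln5, 0.11 for Fbn1, -0.40 for Efemp2 and -2.12 for Fbln1. TPM keeps no sequencing depth, so no counting error can be given. The study describes the samples as biological repeats and counts each isolation of cells as an independent repeat. By its methods the AFCs of an isolation received different treatments, lentivirus among them, so the groups may share isolations. The labels do not say which isolation a sample came from, or whether the groups share isolations.

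Elastin (ENSRNOG00000001469) was listed at 0 TPM in Lv-Ctrl-labelled replicates 1 to 3 and at 0.02 TPM in replicate 4. In Lv-Piezo1-labelled replicates 1 to 4 its values were 1.61, 0.89, 1.36 and 1.21 TPM. The groups did not overlap (two-sided exact permutation test, p = 0.029, below which groups of 4 and 4 cannot go). With a mean below 1 TPM over the 8 samples the gene stayed out of the main test. In the fit without a limit on low TPM its log2 fold change was 1.16 (SE 0.09, limma adjusted p = 1.8e-04). No ratio is given, since most samples of one group are at 0. Even in the Lv-Piezo1-labelled samples, the transcript of the core protein was lower than that of every other member except Fbn2.

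Fbn1 (ENSRNOG00000007302) encodes fibrillin-1, the backbone of the microfibril and the protein altered in Marfan syndrome. It measured 17.6, 16.9, 12.6 and 15.5 TPM in Lv-Ctrl-labelled replicates 1 to 4 and 18.2, 17.1, 19.3 and 20.1 TPM in Lv-Piezo1-labelled replicates 1 to 4. The groups overlapped, with replicate 3 as the lowest Lv-Ctrl-labelled sample. The log2 fold change was 0.25 (SE 0.10, limma adjusted p = 0.058), and it was 0.15 without that replicate and 0.09 after median-ratio scaling. Its limma adjusted p was 0.031 without Lv-Ctrl-labelled replicate 1, where the log2 fold change was 0.30, 0.049 among genes with a mean of at least 5 TPM and 0.38 on quantile-normalized values. The size was below that needed for a call in each setting run. Fbn2 (ENSRNOG00000043219) encodes fibrillin-2, which is used mostly while tissues form. It measured 0.09, 0.03, 0.05 and 0.03 TPM in the Lv-Ctrl-labelled samples and 0.51, 0.41, 0.64 and 0.87 TPM in the Lv-Piezo1-labelled ones. All samples of the second group were above those of the first (two-sided exact permutation test, p = 0.029), but every value was below 1 TPM. The ratio of the means was 12.2, and it is coarse because the lower values have a single significant digit. Without the limit on low TPM the log2 fold change of Fbn2 was 0.61 (limma adjusted p = 0.0023), below the size needed for a call. This too depended on the pseudocount, and the difference was 2.21 at a pseudocount of 0.1.

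All 3 microfibril-associated glycoproteins among the members were called higher, Mfap2 at the threshold and not after median-ratio scaling or quantile normalization. Mfap3 and Mfap3l, named alike but listed among the assembly partners, were tested and not called, with log2 fold changes of 0.09 and 0.08. Mfap5 (ENSRNOG00000015505) encodes MAGP-2, a small protein bound to fibrillin. It measured 33.2, 29.3, 33.7 and 28.7 TPM in Lv-Ctrl-labelled replicates 1 to 4 and 113.65, 118.11, 114.26 and 110.0 TPM in Lv-Piezo1-labelled replicates 1 to 4. The groups were far apart against a SD of 2.61 and 3.32 TPM, and the log2 fold change was 1.84 (SE 0.06, limma adjusted p = 1.9e-08). Mfap2 (ENSRNOG00000008257) encodes MAGP-1, the paralogue of MAGP-2, which also binds fibrillin. It measured 2.58, 4.52, 3.06 and 3.00 TPM in the Lv-Ctrl-labelled samples and 8.41, 7.46, 8.77 and 5.87 TPM in the Lv-Piezo1-labelled ones. The groups did not overlap, and the log2 fold change of 1.01 (SE 0.15, limma adjusted p = 4.3e-04) lay at the threshold. It was below 1 without Lv-Ctrl-labelled replicate 1, 3 or 4 or Lv-Piezo1-labelled replicate 1 or 3, at 0.93 to 0.99. It was also below 1 after median-ratio scaling (0.88) and on quantile-normalized values (0.81), with limma adjusted p of 0.0013 and 0.0025.

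Mfap4 (ENSRNOG00000045683, described in the table as a microfibril-associated glycoprotein 4-like gene) encodes a fibrinogen-domain protein that binds elastin and fibrillin. It measured 0.10, 0.32, 0 and 0.17 TPM in Lv-Ctrl-labelled replicates 1 to 4 and 5.06, 6.09, 5.78 and 4.87 TPM in Lv-Piezo1-labelled replicates 1 to 4. The log2 fold change was 2.49 (SE 0.12, limma adjusted p = 3.2e-07) and depended on the pseudocount, with 4.66 at a pseudocount of 0.1. The gene passed the limit on low TPM only through the Lv-Piezo1-labelled samples, where it had to be high to be tested. Mfap2, Mfap4 and Mfap5 together had 34.7 ± 2.19 TPM in the Lv-Ctrl-labelled samples and 127 ± 4.62 TPM in the Lv-Piezo1-labelled ones (SD, n = 4 each), and Mfap5 made up most of both.

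Promoter windows are shown for Mfap5, Mfap2 and Fbln2, the members called higher that matched an entry, so that these genes can be set side by side. RefSeq windows of 300 bases on build GRCr8, from 250 bases before to 50 after the gene's start, matched 7 of the 10 members. They were searched on both strands for TATAAA, for the GC box GGGCGG, for GGAATG, the core of the site of TEAD factors, for TGANTCA, the AP-1 site, for CAGACA, which holds a SMAD element, and for the CArG box of serum response factor. These motifs were chosen with the expression values known. Capitals mark the GC boxes, the one searched motif found in any of the 3 windows. Mfap5 lies at chr4:157399669-157399968 on the plus strand, Mfap2 at chr5:158597478-158597777 on the plus strand and Fbln2 at chr4:125261409-125261708 on the plus strand.
Mfap5: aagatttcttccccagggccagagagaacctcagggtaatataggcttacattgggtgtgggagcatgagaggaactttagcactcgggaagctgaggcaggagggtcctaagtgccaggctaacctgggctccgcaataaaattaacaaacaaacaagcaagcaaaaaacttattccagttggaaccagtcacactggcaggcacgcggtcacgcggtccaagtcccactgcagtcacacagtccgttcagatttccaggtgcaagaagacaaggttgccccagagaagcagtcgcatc
Mfap2: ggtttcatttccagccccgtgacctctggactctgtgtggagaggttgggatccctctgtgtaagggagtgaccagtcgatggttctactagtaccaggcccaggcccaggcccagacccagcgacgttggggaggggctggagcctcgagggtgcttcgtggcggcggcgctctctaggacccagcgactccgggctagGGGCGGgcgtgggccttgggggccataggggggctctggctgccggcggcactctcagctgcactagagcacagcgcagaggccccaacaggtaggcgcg
Fbln2: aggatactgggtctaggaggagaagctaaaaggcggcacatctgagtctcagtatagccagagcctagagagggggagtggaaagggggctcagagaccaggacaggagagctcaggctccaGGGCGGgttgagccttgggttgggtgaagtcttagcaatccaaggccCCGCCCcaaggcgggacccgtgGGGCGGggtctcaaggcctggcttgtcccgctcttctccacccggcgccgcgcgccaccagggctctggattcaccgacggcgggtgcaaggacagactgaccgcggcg

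The windows were unlike each other in composition. G and C made up 51.7% of the Mfap5 window, the same as the median of 51.7% over the 33469 promoters of the table, 67.0% of the Mfap2 window and 64.7% of the Fbln2 window. GGGCGG was found 3 times in Fbln2, 1 time in Mfap2 and in no place in Mfap5, and 33.1% of all promoters hold it. Of the other motifs, which 14.2% (TATAAA), 14.2% (GGAATG), 7.33% (TGANTCA), 21.1% (CAGACA) and 1.64% (CArG box) of all promoters hold, none was found in these 3 windows. Among the other members with a window, GGGCGG was found 5 times in Efemp2 and 1 time in Fbln5, GGAATG 1 time each in Fbln5 and Fbn2, and CAGACA 1 time in Fbn1. A match or its lack describes the letters of the window only.

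Fibulins are elastin- and microfibril-binding proteins with repeats of an EGF-like module, and they hold the one called member that fell. On the log2(TPM + 1) scale they also hold the largest rise among the tested members, that of Fbln2, while at a pseudocount of 0.1 the log2 fold change of Mfap4 (4.66) was above that of Fbln2 (3.99). Fbln2 (ENSRNOG00000007338) encodes fibulin-2, a protein of basement membranes, vessel walls and developing cartilage. It measured 3.56, 3.77, 3.18 and 2.81 TPM in Lv-Ctrl-labelled replicates 1 to 4 and 52.74, 54.49, 55.36 and 54.40 TPM in Lv-Piezo1-labelled replicates 1 to 4. The samples of each group were close together, and the log2 fold change was 3.68 (SE 0.07, limma adjusted p = 1.0e-09), with 24 as its rank by size on this scale among the 13103 tested genes. Fbln1 (ENSRNOG00000014137) encodes fibulin-1, which binds fibronectin and is found within elastic fibres. It measured 344.27, 349.95, 315.62 and 332.19 TPM in the Lv-Ctrl-labelled samples and 85.34, 80.95, 85.37 and 86.66 TPM in the Lv-Piezo1-labelled ones. Its log2 fold change of -1.97 (SE 0.04, limma adjusted p = 1.5e-09) made it the called member that fell. Both calls held in every alternative run for these genes, with log2 fold changes of 3.51 to 3.99 for Fbln2 and -2.14 to -1.95 for Fbln1.

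Fibulin-5 and fibulin-4, which elastic fibre assembly cannot do without, had smaller differences. Fbln5 (ENSRNOG00000050539) encodes fibulin-5, which links elastin to the microfibril and to integrins on the cell. It measured 25.6 ± 0.939 TPM in the Lv-Ctrl-labelled samples, from 24.55 to 26.78, and 32.3 ± 1.07 TPM in the Lv-Piezo1-labelled ones, from 31.18 to 33.66 (SD, n = 4 each). The groups did not overlap, but the log2 fold change of 0.33 (SE 0.04, limma adjusted p = 1.5e-04) was below the size needed for a call and 0.17 after median-ratio scaling. Efemp2 (ENSRNOG00000020587) encodes fibulin-4, which brings lysyl oxidase to elastin. It measured 457 ± 12.5 TPM, from 438.84 to 466.49, and 383 ± 11.1 TPM, from 368.5 to 395.39 (SD, n = 4 each). The samples labelled Lv-Piezo1 were all lower, by -0.26 on the log2 scale (SE 0.03, limma adjusted p = 1.3e-04), which is also below the size needed for a call, and by -0.42 after median-ratio scaling.

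**Figure D2:**
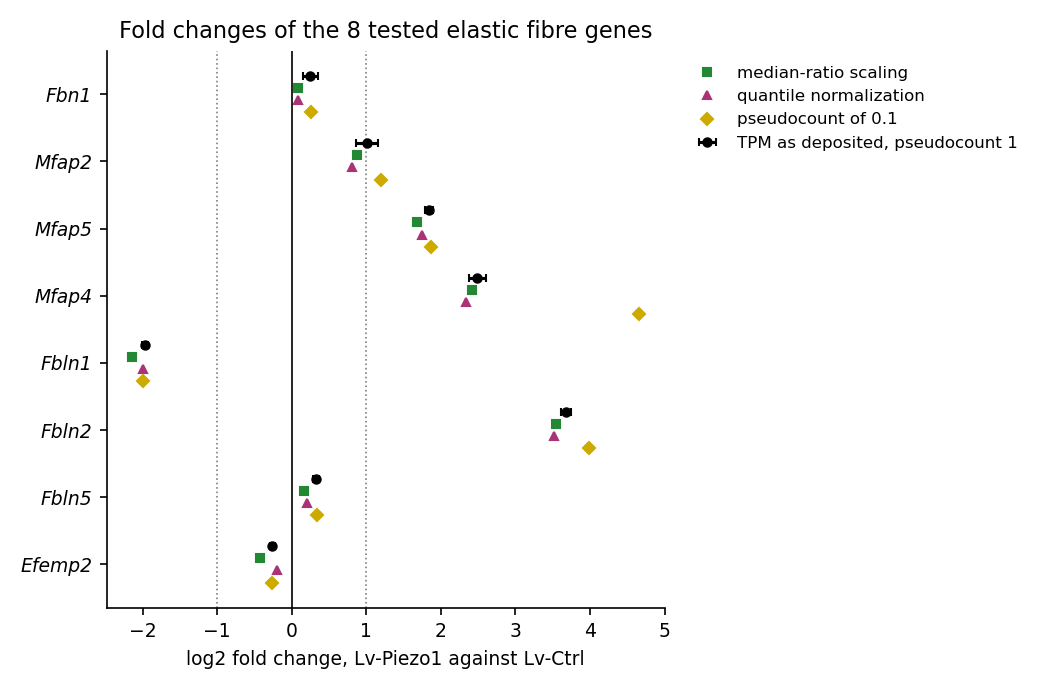
The log2 fold change (x axis) of the 8 tested elastic fibre genes is plotted for the deposited TPM with its standard error, and for 3 alternatives without error bars. Dotted lines mark the size needed for a call. Mfap2 crosses it between settings, while Fbln1, Fbln2, Mfap4 and Mfap5 stay beyond it.

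The order of the members by TPM changed between the groups. In the Lv-Ctrl-labelled samples it ran from Efemp2 (457 TPM) and Fbln1 (336 TPM) through Mfap5, Fbln5, Fbn1, Fbln2, Mfap2, Mfap4 and Fbn2 to Eln. The neighbours Fbln2 (3.33 TPM) and Mfap2 (3.29 TPM) overlapped in their samples, as did Mfap4 and Fbn2. In the Lv-Piezo1-labelled ones Efemp2 (383 TPM) was still the highest, followed by Mfap5 (114 TPM), Fbln1 (84.6 TPM), Fbln2 (54.2 TPM), Fbln5, Fbn1, Mfap2, Mfap4, Eln and Fbn2. Of these neighbours, Mfap2 and Mfap4 overlapped. Elastic fibre transcripts were dominated by those of proteins that bind to the fibre, and those of the core and of the microfibril backbone were few in both groups.

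The summed TPM of the 10 members was 872 ± 24.8 in the Lv-Ctrl-labelled samples and 701 ± 13.1 in the Lv-Piezo1-labelled ones (SD, n = 4 each). The sum was lower although most members were higher, because Fbln1 and Efemp2 hold much of it. The share of Fbln1 in the sum went from 38.5% ± 1.13 to 12.1% ± 0.548, that of Mfap5 from 3.58% ± 0.299 to 16.3% ± 0.22 and that of Fbln2 from 0.381% ± 0.0387 to 7.74% ± 0.176. The share of Efemp2 was 52.4% ± 1.08 and 54.5% ± 0.665 (SD, n = 4 each). The sum of Fbln1 and Fbln2 was 339 ± 15.5 TPM and 139 ± 2.62 TPM, and Fbln2 formed 0.981% ± 0.0991 and 39.1% ± 0.902 of it (SD, n = 4 each). These sums and shares are descriptions without a test.

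**Figure D3:**
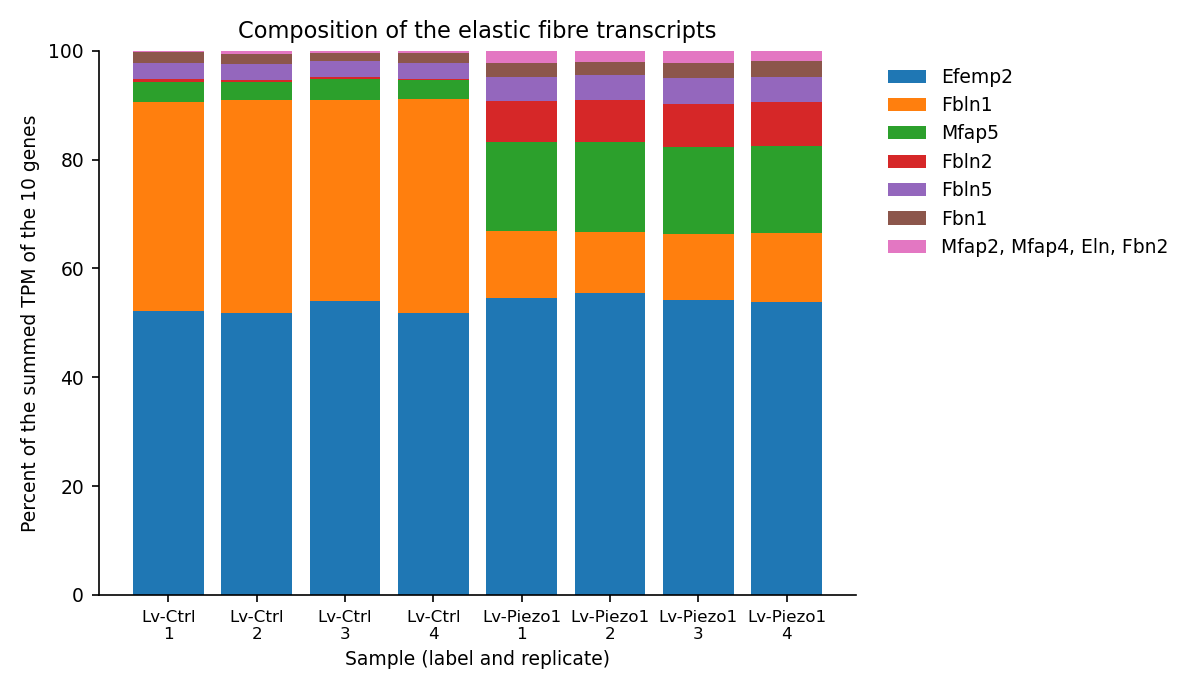
Stacked bars give the percent of the summed TPM of the 10 elastic fibre genes (y axis) that each gene holds in each sample (x axis), with the 4 lowest genes drawn as 1 class. In the Lv-Piezo1-labelled samples the Fbln1 band shrinks and the Mfap5 and Fbln2 bands widen, while Efemp2 keeps over 51.7% in every sample.

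Ratios between members within a sample do not depend on how that sample was scaled. The log2 ratio of Fbln1 to Fbln2 was 6.66 ± 0.15 in the Lv-Ctrl-labelled samples and 0.64 ± 0.05 in the Lv-Piezo1-labelled ones (SD, n = 4 each), a difference of -6.02 (SE 0.08). In linear terms Fbln1 was 92.8 to 118 times as abundant as Fbln2 in the former and 1.49 to 1.62 times in the latter. The log2 ratio of Fbln5 to Efemp2, the fibulins of elastin assembly, went from -4.16 ± 0.03 to -3.56 ± 0.05, a difference of 0.60 (SE 0.03). The log2 ratio of Fbn1 to Fbn2 went from 8.43 ± 0.76 to 4.99 ± 0.36, a difference of -3.44 (SE 0.42) that is coarse for the reason given for Fbn2. It was -0.36 with a pseudocount of 1 on both genes.

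The paralogues Mfap5 and Mfap2 were both higher in the Lv-Piezo1-labelled samples. Their log2 ratio went from 3.28 ± 0.42 to 3.92 ± 0.24 (SD, n = 4 each), a difference of 0.64 (SE 0.24). For each of these 4 ratios the groups did not overlap and the exact two-sided permutation test gave p = 0.029. It was the same after Benjamini-Hochberg adjustment over the 4 ratios, and it is the smallest p the design allows. For Fbln1 to Fbln2 and for Fbln5 to Efemp2 this outcome was fixed beforehand. In each pair both genes already lay apart between the groups, in opposite directions. The share of other gene pairs whose ratios do not overlap was not computed. For Mfap5 to Mfap2 the lack of overlap rested on a narrow gap between the groups. The highest linear ratio was 12.9 in the former group and the lowest was 13.0 in the latter. Without Lv-Ctrl-labelled replicate 2 the difference was 0.45, and without any 1 of the Lv-Piezo1-labelled samples it was 0.54 to 0.71, each with p = 0.0571 in the exact permutation test. The ratio of Eln to Fbn1 could not be formed where Eln is at 0. With a pseudocount of 1 on both genes it was higher by 0.92 on the log2 scale (two-sided exact permutation test, p = 0.029).

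Genes that act on the elastic fibre were taken from lists written from general knowledge. Their counts are to be read beside the 4.91% of all tested genes called higher, the 2.76% called lower and the 58.2% at an adjusted p below 0.05, and their medians beside 0.14. Of the 5 crosslinking enzymes of the lysyl oxidase family, all were tested and 0 were called by limma, with 4 at an adjusted p below 0.05 and the same number, 4, at an unadjusted p below 0.05. Their median log2 fold change was 0.21. On the deposited TPM the largest difference was that of Loxl1, the member most closely tied to elastin. It had 186 ± 7.97 and 279 ± 7.53 TPM and a log2 fold change of 0.58 (SE 0.04, limma adjusted p = 1.9e-06). Loxl4, also among these 4, was lower, with 12.1 ± 1.68 and 8.51 ± 0.686 TPM (SD, n = 4 each). Its log2 fold change was -0.46 (SE 0.10, limma adjusted p = 0.0036). Relative to the median of 0.14, Loxl4 had the larger difference, at -0.60 against 0.44 for Loxl1. Lox, the founding member of the family, ranged from 451.46 to 1029.19 TPM in the Lv-Ctrl-labelled samples and from 648.24 to 977.88 TPM in the Lv-Piezo1-labelled ones, and its groups overlapped. The summed level of the 5 enzymes was 826 to 1455 TPM and 1162 to 1517 TPM, beside an elastin transcript of at most 1.61 TPM.

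Of 24 assembly partners, 22 had a row, 16 were tested, 3 were called higher and 1 was called lower. Fn1, fibronectin, on which fibrillin is assembled, rose from 1940 ± 242 to 4908 ± 297 TPM. Adamts10, a secreted protein that binds fibrillin-1, rose from 33.4 ± 3.05 to 71.1 ± 1.68 TPM, and Adamtsl3, of the same superfamily, from 4.11 ± 0.461 to 12.2 ± 1.3 TPM. Dcn, decorin, a small proteoglycan of collagen fibrils that also binds microfibrils, fell from 1456 ± 69.3 to 519 ± 14.9 TPM (SD, n = 4 each). Adamts10 was below the size needed for a call after median-ratio scaling (0.91) and on quantile-normalized values (0.96). The median log2 fold change of the list was 0.29.

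Microfibrils also hold TGF-beta in latent form through the latent TGF-beta binding proteins. Of the 7 genes of this list, all were tested, 3 were called higher and 0 were called lower by limma, with 4 at an adjusted p below 0.05. Tgfb3, a TGF-beta ligand, rose from 60.7 ± 1.8 to 426 ± 10.7 TPM, and Tgfb2, another, from 14.2 ± 1.34 to 30.3 ± 1.35 TPM (SD, n = 4 each). Ltbp2, which binds fibrillin-1 and fibulin-5 and not latent TGF-beta, rose from 233 ± 17.6 to 600 ± 24.1 TPM (SD, n = 4 each). Tgfb2 was below the size needed for a call without Lv-Ctrl-labelled replicate 3 (0.99), after median-ratio scaling (0.89) and on quantile-normalized values (0.90). Ltbp1, the other gene at an adjusted p below 0.05, went the other way, from 194 ± 14.7 to 129 ± 7.15 TPM (SD, n = 4 each). Its log2 fold change of -0.58 (SE 0.06, limma adjusted p = 4.2e-05) was below the size needed for a call. Ltbp4, needed for elastin assembly with fibulin-5, was at 25.5 ± 1.66 and 25.4 ± 0.697 TPM (SD, n = 4 each), and its log2 fold change was -0.01 (SE 0.05). The median log2 fold change of the list was 0.02.

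Of 16 genes of elastin breakdown and its inhibitors, 15 had a row and 7 were tested, with a median log2 fold change of -0.05, 1 gene called higher and 1 called lower. Mmp9, a gelatinase that cleaves elastin, rose from 4.5 ± 0.532 to 24.4 ± 1.31 TPM, and Ctsk, the elastolytic protease cathepsin K, fell from 220 ± 5.01 to 73.3 ± 2.76 TPM (SD, n = 4 each). The elastases Elane, Ctsg and Mmp7 were listed at 0 in every sample. Of 12 receptors of elastin and microfibrils, 10 were tested, with a median log2 fold change of 0.27, and 1 was called higher. Itgb3, the integrin beta3 chain that binds fibrillin with the alphav chain, rose from 0.253 ± 0.111 to 1.81 ± 0.433 TPM (SD, n = 4 each), and it was at 0.96 and no longer called after quantile normalization. Like Mfap4, it passed the limit on low TPM only through the Lv-Piezo1-labelled samples, and it was not tested when any 1 of these was left out. For each called gene of these lists the groups did not overlap, as in 54.2% of all tested genes, and the limma adjusted p was at most 1.7e-04. Both follow largely from the call itself.

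**Figure D4:**
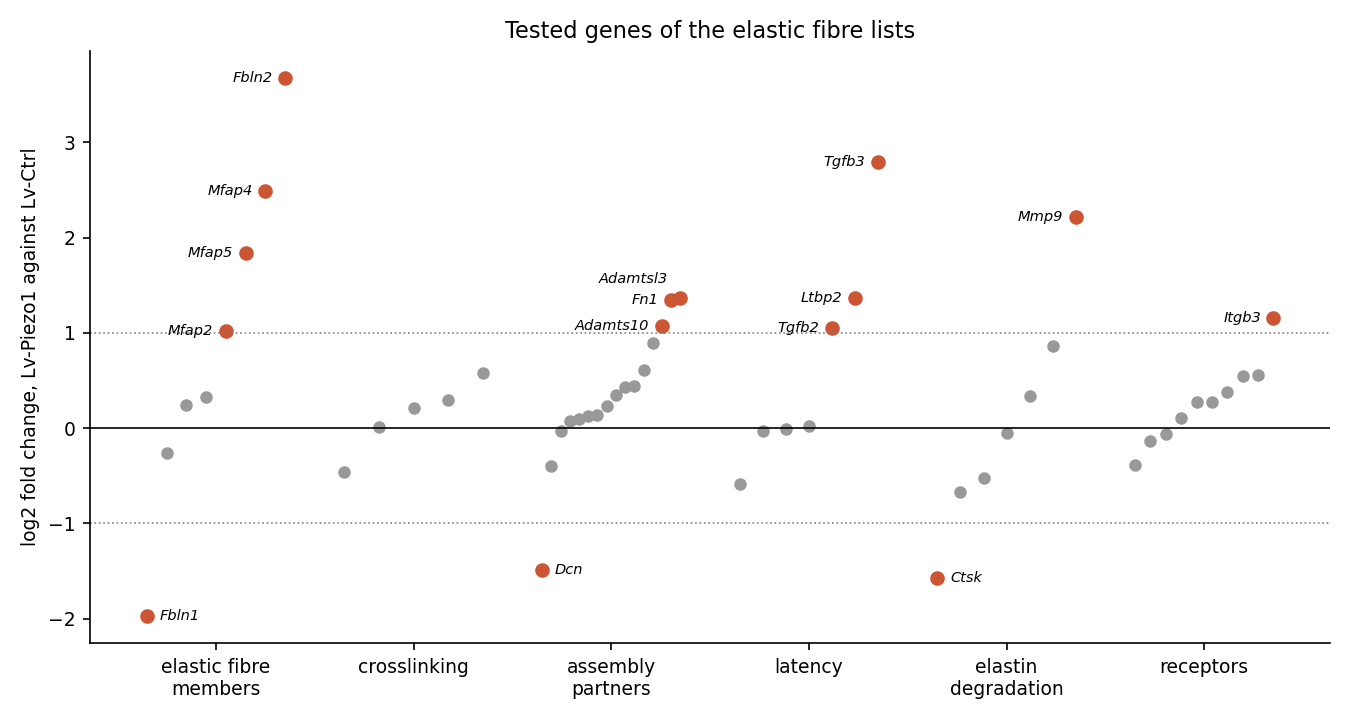
Each point is the log2 fold change (y axis) of 1 tested gene in the elastic fibre genes and in 5 lists of genes that act on the fibre (x axis), ordered by size within a list. Orange points with names are called and grey points are not, and dotted lines mark the size needed for a call. The crosslinking enzymes hold 0 called genes.

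Markers of other cell types were set beside these values. Of 13 smooth muscle and mural cell markers, 11 were tested, 6 were called higher (Acta2, Tagln, Myh11, Cnn1, Des and Mcam) and 2 lower (Kcnj8 and Abcc9). Their summed level was 949 to 996 TPM in the Lv-Ctrl-labelled samples and 4817 to 4976 TPM in the Lv-Piezo1-labelled ones, and 0 of them were at 0 in all samples. They moved with the same grouping as the elastic fibre genes, and their part in the result was not tested. In bulk samples fewer cells of a type and less RNA per cell cannot be told apart. Of 10 annulus fibrosus markers, 8 were tested and 1, Comp, was called higher, from 0.738 to 2.86 TPM. Comp passed the limit on low TPM only through the Lv-Piezo1-labelled samples. Col1a1 had 3103 to 3432 TPM and 5696 to 5942 TPM in the groups in the same order, while Fmod had 63.7 to 72.9 TPM and 32.6 to 35.6 TPM and Mkx 21.3 to 27.9 TPM and 13.7 to 16.7 TPM, so these markers lay apart in opposite directions without a call. The list summed to 5753 to 6462 TPM and 9914 to 10575 TPM, and Tnmd was at most at 0.08 TPM and Col2a1 at most at 0.59 TPM.

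Of 8 endothelial markers, 7 were below 1 TPM in every sample and Emcn was at 0. Of 7 macrophage and leukocyte markers, 5 were below 1 TPM in every sample, Adgre1 and Cd3e were at 0, and Cd68 was called higher, from 0.955 to 12.3 TPM. Cd68 too passed the limit on low TPM only through the Lv-Piezo1-labelled samples. The macrophage and leukocyte list summed to 21.5 to 22.9 TPM and 36 to 41.7 TPM, and the Schwann cell list to 321 to 332 TPM and 140 to 149 TPM. The nucleus pulposus list summed to 176 to 192 TPM in the Lv-Ctrl-labelled samples and 181 to 198 TPM in the Lv-Piezo1-labelled ones. In the same order, Foxf1 had 70.4 to 84.3 and 48.2 to 51.9 TPM, and Pax1 had 99.3 to 105 and 111 to 119 TPM. Tbxt of the nucleus pulposus, Sox10 of Schwann cells and Myod1 of skeletal muscle were at 0 in every sample. Among the other markers of these types, Cd24 was called higher and S100b lower, and their part in the values of the elastic fibre genes was not tested either. The skeletal muscle gene Ckm stood at 14.0 TPM in Lv-Ctrl-labelled replicate 2 and at 2.18 TPM or less in the other samples. Myh4 had 0.50 to 4.26 TPM in the Lv-Ctrl-labelled samples and 0.40 to 0.64 TPM in the Lv-Piezo1-labelled ones. Actn2 went the other way, with 0.10 to 0.20 and 0.61 to 1.16 TPM. The skeletal muscle list summed to 1.94 to 18.4 TPM and 2.53 to 3.91 TPM. Leaving out Lv-Ctrl-labelled replicate 2 gave 4 elastic fibre genes called higher and 1 lower.

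The tested genes outside the members whose log2(TPM + 1) followed that of Eln most closely over the 8 samples were Rasl10a (Pearson r = 0.997), Slc39a11 (0.996) and Ccdc136 (0.996). Among the 11573 genes compared, 1532 had a correlation of at least 0.95, and the 8 points share the split into 2 groups. Rasl10a had 1.44 ± 0.058 and 3.08 ± 0.432 TPM, Slc39a11 had 8.98 ± 0.36 and 16.3 ± 1.37 TPM, and Ccdc136 had 15.5 ± 0.263 and 25.5 ± 1.41 TPM in the Lv-Ctrl-labelled and the Lv-Piezo1-labelled samples (SD, n = 4 each). No p is given for these correlations.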

How the data were processed

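RNA-seq was measured in 8 samples of AFCs under CMS, 4 per group. Per the study's methods, reads passing quality filters were aligned to a rat genome by HISAT2, and StringTie rebuilt the transcripts. Those methods speak of FPKM, the table of TPM. The submitters' processing notes name DESeq2 and mm10, a mouse build, while 30560 of the 31699 rows carry rat Ensembl identifiers and 1139 are assembled loci. The build and annotation behind the table are therefore not settled, and no gene coordinates are given from it. The deposited values are TPM per sample, rounded by the authors to 2 decimals, with the mean of each group, which was not used. TPM is no count, so no count model was fitted, and depth is unknown.

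Genes with a mean of at least 1 TPM over the 8 samples were compared as log2(TPM + 1) with limma 3.58.1 in R 4.3.3 (moderation with a trend, Benjamini-Hochberg over 13103 genes, no block). A gene was called at adjusted p below 0.05 if its log2 fold change was 1 or more in size. Single values were compared by an exact two-sided permutation test over 70 relabelings (Python 3.11.15). The fit was tested on simulated data. Members and lists were chosen with earlier results of these data known, and the motifs after the values had been seen. The other genes named are the called genes of each list, the gene of largest change where none was called, the 3 most like Eln, the target and the markers. Lox, Loxl4, Ltbp1 and Ltbp4 were named after their values were seen. Thsd4, Hspg2, Timp2, Krt19 and Car3 of the lists were not analysed here. The alternatives are given with their effect in the closing section.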

Additional observations from a re-analysis of the deposited data

Results flagged for a closer look

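In 3 of 44 sets of 4 samples, each the TPM of 1 named gene in 1 group, the sample at one end stood apart from the other samples of its group by Dixon's test, which chance does in about 1 of 20 sets. Eln was at 0.02 TPM in replicate 4 labelled Lv-Ctrl, where the other samples were listed at 0. With those samples tied at 0, any value above 0 would have been flagged, so the chance rate does not apply to this set. Dcn was at 1352 TPM in replicate 3 labelled Lv-Ctrl, below the other samples. Ctsk was at 69.2 TPM in replicate 1 labelled Lv-Piezo1, below the other samples. In each case the gap lay within a group whose samples were all on one side of the other group.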

How the results depend on the processing

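Of 63 log2 fold changes of the 8 tested members under other settings, 61 kept their direction and their call, which needs both the adjusted p and the size, and of 64 that each left out 1 sample, 59 did. The 7 exceptions concern Mfap2, as given in the results, and none of these values changed direction. Of the untested members, Fbn2 went from 0.61 to 2.21 and Eln from 1.16 to 3.68 with a pseudocount of 0.1. The number of members called higher was 3 to 5 under all settings, and 3 to 4 when 1 sample was left out. The number called lower was 1, or 2 without the fold change threshold, where Efemp2 is added. All genes called numbered 1005, against 628 with a mean TPM of at least 5, 7626 without the fold change threshold, 1438 with a pseudocount of 0.1 and 996 to 1038 when 1 sample was left out. With the replicate block 1004 genes and the same number of members were called. Samples with the same number did not deviate together (correlations of -0.0576 to -0.0124 over genes), so the numbers were not taken as pairs. In the replicate block of the ratios the differences were -3.44, -6.02, 0.60 and 0.64 as before, with p = 0.125 by an exact sign-flip permutation, the smallest that 4 pairs allow. Leaving out 1 sample gave 0.45 to 0.78 for Mfap5 to Mfap2. The depth of the samples is unknown, so how far Eln, Fbn2 and Mfap4 could be detected in the samples labelled Lv-Ctrl was not tested.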
